A study of Mus musculus with 5 samples.

Results

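The genes of the Hippo pathway and the common targets of its effectors YAP and TAZ were described in cells sorted from adult mouse pancreas. Members were the rows of the deposited tables whose symbol was on a list of 34 genes. Of these, 33 were found in all 5 libraries, among 16992 symbols that the tables share. Ajuba was absent by that symbol and was left out of the counts. One further member, Vgll3, had a mean under 1 and was not tested, so that 32 of the 11769 genes tested were members. The members fall into 8 genes of the kinase module, 11 upstream and junction genes, 8 coactivator and TEAD genes and 6 YAP target genes.

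The study sorted freshly isolated pancreas cells of adult C57BL/6 mice, 2 to 4 months old, by the surface proteins CD133 (encoded by Prom1) and CD71 (the transferrin receptor, encoded by Tfrc). One population was CD133(positive)CD71(negative), with 2 libraries, and the other was CD133(high)CD71(low), with 3. They are called CD71(negative) and CD71(low) here. Both came from the same strain and tissue, with no genetic change or treatment named, and nothing in the labels says whether libraries of a group were separate animals or sorts. P-values therefore rest on variation among the libraries alone, some of which may be technical. The cell marker label of the CD71(low) libraries reads plus for both proteins, where their titles read high and low. The third CD71(low) title has no number and is called library 3.

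The Hippo pathway is a kinase cascade that senses cell contact, polarity and tension. The kinases MST1 and MST2 (genes Stk4 and Stk3) activate LATS1 and LATS2, which phosphorylate the coactivators YAP (Yap1) and TAZ (Wwtr1) and keep them out of the nucleus. Unphosphorylated YAP and TAZ bind TEAD transcription factors and switch on genes such as Ctgf, Cyr61 and Ankrd1. In the pancreas, YAP is known to be abundant in duct cells and low in mature acinar cells, and loss of MST1 and MST2 in the mouse pancreas is known to disturb acinar identity.

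No label names the unit, and the values behave as RPKM, reads scaled by transcript length and by the reads of the library, so that levels can be compared between genes. Depth, inferred from the size of one read in the low values, was 25400000 and 19800000 reads in the CD71(negative) libraries and 31900000, 30800000 and 41800000 in the CD71(low) libraries. The table of library 3 also gives a total of about 74200000 alignments, above its inferred depth, and the reason for the gap was not tested. Library 3 was deposited with other gene models. On the log2(RPKM + 1) scale its Pearson r across genes was 0.911 and 0.920 with CD71(low) libraries 1 and 2, which had an r of 0.994 with each other. Results that rest on it are given with and without it. Prom1 measured 47.3 ± 2.14 in CD71(negative) (SD, n = 2) and 93.6 ± 34.4 in CD71(low) (n = 3), and Tfrc measured 4.18 ± 0.26 and 8.13 ± 3.61.

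Both populations held duct epithelial transcripts, and the other cell types differed between them. The summed RPKM of 16 ductal markers was 3582 and 3819 in the CD71(negative) libraries and 5182, 5180 and 7332 in the CD71(low) libraries. That of 13 leukocyte markers was 1645 and 1610 against 66.3, 55.6 and 29.9. Endothelial markers, 14 in all, summed to 908 and 847 against 249.5, 154 and 85.1. For 14 genes of mesenchymal and stellate cells the sum was 408 and 390.5 against 181, 164 and 172.5, and the 7 Schwann cell markers summed to 18.5 and 17.7 against 2.57, 2.62 and 3.54. By gene, limma called 11 of 16 tested ductal markers higher in CD71(low), and 12 of 12 leukocyte, 14 of 14 endothelial, 8 of 11 mesenchymal, 5 of 8 endocrine and 3 of 4 Schwann cell markers lower. The lower endocrine genes were Sst, Ppy, Pyy, Gcg and Chgb, while Ins1 and Ins2 were not called. Acinar markers had the largest sums, at 218300 and 196400 in CD71(negative) against 182700, 184300 and 80630 in CD71(low). The acinar sum was thus lower in every CD71(low) library, most of all in library 3, while limma called 0 of 12 tested acinar markers. Endocrine sums were 1777 and 1612 against 1520, 1770 and 568, with overlapping groups. Only the Schwann cell gene Foxd3 was at 0 in any library, in CD71(low) libraries 1 and 3.

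**Figure D1:**
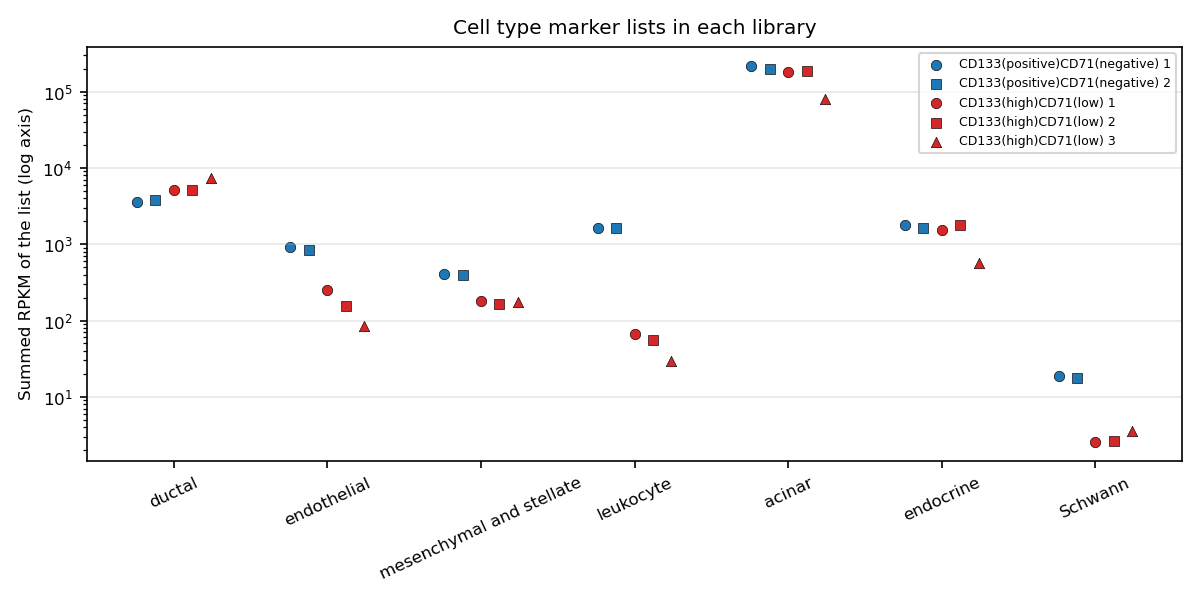
Summed RPKM (log axis) of 7 cell type marker lists in each library, with one point per library. Ductal sums are higher in every CD133(high)CD71(low) library than in both CD133(positive)CD71(negative) libraries. Leukocyte, endothelial, mesenchymal, acinar and Schwann cell sums are lower in every one, and endocrine sums overlap.

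Of the 32 tested members 6 were higher and 3 lower in CD71(low) cells (limma, Benjamini-Hochberg adjusted over all genes tested, threshold 0.05). The higher genes were Wwc1, Cyr61, Ankrd1, Tead3, Fat1 and Ptpn14, and the lower ones were Axl, Dchs1 and Fat4. Over all genes, 6.25% were called higher and 7.22% lower, against 18.8% and 9.38% of the members. The members' median log2 fold change was 0.34, close to the 0.31 of all genes tested. Every CD71(low) library lay above both others in 18 members and below both in 4. Over all genes this was so for 58.2% above and 12.0% below, so that the members' shares of 56.2% and 12.5% were near the background.

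The number of calls varied with the libraries used and with their scaling. Without library 3, 16 members were higher and 5 lower, where 40.9% of all genes were called higher and 12.2% lower. Median-of-ratios scaling, which sets the typical gene to the same level in each library, moved the median of all genes from 0.31 to 0.06. It left 2 members higher, Wwc1 and Ankrd1, and the same 3 lower, where 2.65% of all genes were called higher and 9.25% lower (312 and 1089 genes, against 735 and 850 before). Leaving out CD71(negative) library 1 or 2 leaves that group with a lone library, assumed to vary like the others. The members' median log2 fold change was then 0.31 or 0.37, against 0.27 or 0.35 for all genes tested. Without CD71(low) library 1, 2 members were higher and 3 lower, and without CD71(low) library 2, 1 was higher and 2 lower. Over the 5 fits that leave out 1 library each, Axl, Dchs1 and Wwc1 were called in 3, Fat4 and Cyr61 in 2, and Fat1, Tead3, Ankrd1 and Ptpn14 in 1, the fit without library 3. All 9 kept their direction in these fits.

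**Figure D2:**
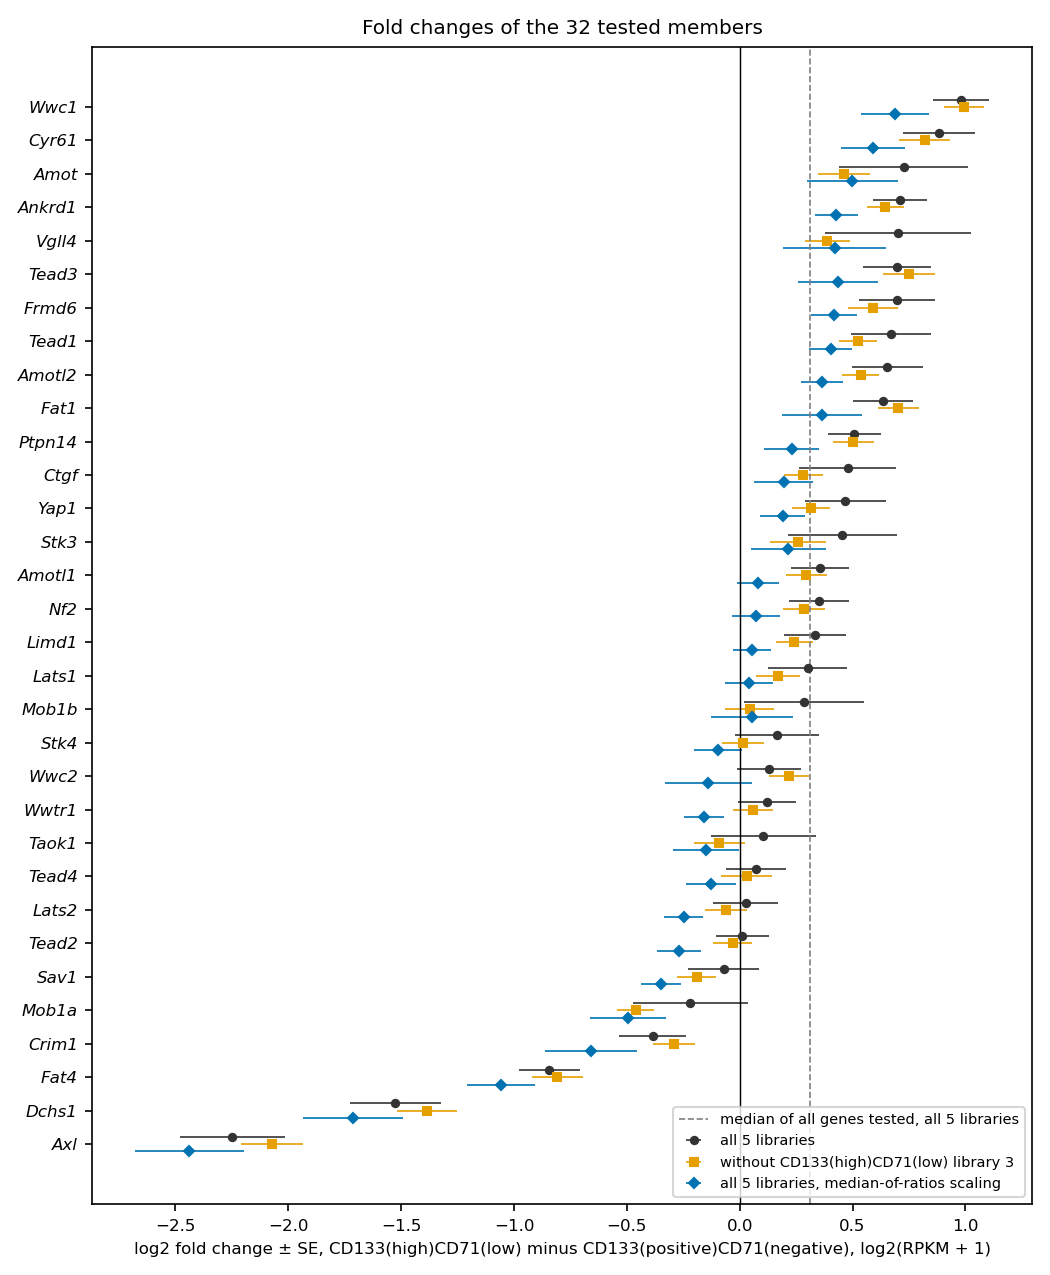
Log2 fold changes with SE (x axis, log2(RPKM + 1) scale) of the 32 tested members, ordered by the fit on all 5 libraries, with the fits without CD133(high)CD71(low) library 3 and with median-of-ratios scaling beside it. Wwc1 at 0.98 and Cyr61 at 0.88 stand highest, Axl at -2.25 and Dchs1 at -1.53 lowest, and the dashed line is the median of all genes at 0.31.

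The members spanned a wide range of levels. Wwc1 (mean of the 2 group means, 101.9 RPKM), Cyr61 (90.6 RPKM) and Amotl2 (52.1 RPKM) were the highest, above 98.3%, 98.1% and 96.2% of the common symbols. All 3 stood well above the next member, Tead2, at 20.98 RPKM. The kinase module ranged from Sav1 at 14.5 RPKM to Mob1b at 3.53 RPKM, and Vgll3 was the lowest member at 0.329 RPKM. Strandedness is not stated, and exons of Taok1, Sav1, Fat1, Fat4, Dchs1, Wwc2, Yap1, Tead2, Ctgf, Crim1 and Ptpn14 overlap a gene on the opposite strand, so that reads of the partner cannot be told apart from theirs.

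**Figure D3:**
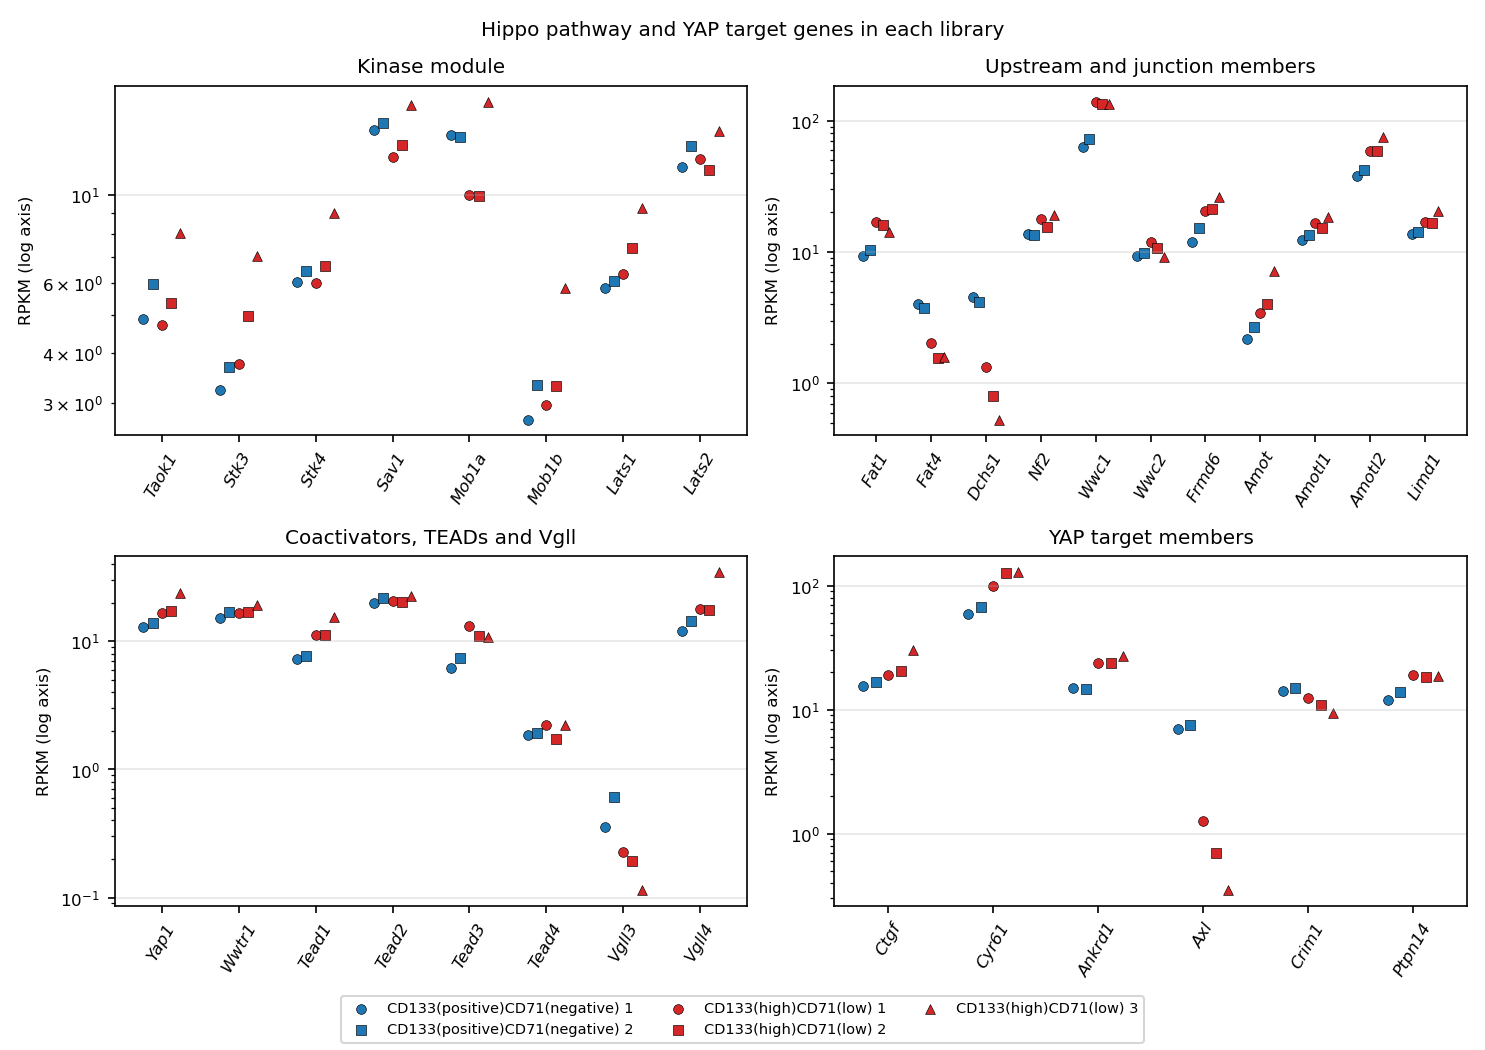
RPKM (log axis) of the 33 members in each library, in 4 panels by role, with one point per library. Among the kinases the groups overlap except for Stk3 and Lats1, while Wwc1, Cyr61 and Ankrd1 are higher and Dchs1, Fat4 and Axl lower in all 3 CD133(high)CD71(low) libraries.

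In the kinase module no member passed the test, and the groups overlapped in 6 of its 8 members. The exceptions were Stk3 and Lats1, both higher, while 58.2% of all genes separated upward and 12.0% downward. Limma called 0 of 8 members, where 6.25% of all genes were called higher and 7.22% lower. With so few members, 0 calls cannot be told apart from these shares. At an unadjusted p under 0.05 in limma, 0 members stood out in either direction, against 3235 higher and 1080 lower of 11769 genes. The median log2 fold change was 0.13, against 0.31 for all genes. Lats2, the kinase that is itself a YAP target, measured 11.7 and 13.3 RPKM in the CD71(negative) libraries and 12.3, 11.6 and 14.5 RPKM in the CD71(low) libraries. The ranges overlapped, at a log2 fold change of 0.03 with SE 0.14 (limma adjusted p = 0.888), which was -0.25 with median-of-ratios scaling. Its partner Lats1 measured 5.85 and 6.06 RPKM against 6.32, 7.35 and 9.29 RPKM. All CD71(low) libraries were higher for Lats1, by less than the test could call (log2 fold change 0.30 with SE 0.18, limma adjusted p = 0.241).

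The upstream kinase genes did not pass either. Stk4 measured 6.05 and 6.45 RPKM against 6.02, 6.63 and 8.99 RPKM. Stk3 measured 3.23 and 3.69 RPKM against 3.75, 4.97 and 7.03 RPKM. Library 3 was the highest for both, and without it their log2 fold changes were 0.01 and 0.26. Taok1, encoding a kinase that phosphorylates MST kinases, measured 4.88 and 5.97 RPKM against 4.70, 5.36 and 8.02 RPKM, with overlapping groups. Mob1b, a coactivator of LATS, lay between 2.72 and 3.32 RPKM in CD71(negative) and between 2.96 and 5.84 RPKM in CD71(low).

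Sav1 and Mob1a encode the scaffold of MST and the other LATS coactivator, and both were below the CD71(negative) values in CD71(low) libraries 1 and 2. Mob1a measured 14.2 and 14.0 RPKM in CD71(negative), 10.0 and 9.95 RPKM in CD71(low) libraries 1 and 2, and 17.2 RPKM in library 3. Over all 5 libraries its log2 fold change was -0.22 (with SE 0.25, limma adjusted p = 0.502). Without library 3 it was lower, with a log2 fold change of -0.46 (limma adjusted p = 0.00184). Sav1 measured 14.5 and 15.2 RPKM against 12.4, 13.4 and 16.8 RPKM. With median-of-ratios scaling and without library 3, Mob1a, Sav1 and Lats2 were called lower, at log2 fold changes of -0.64, -0.37 and -0.24 (limma adjusted p = 0.000431, 0.00662 and 0.0422). In that fit 16.5% of all genes were called lower and 15.2% higher, against 37.5% and 0.0% of the 8 kinase module members. Library 3 exceeded the mean of libraries 1 and 2 by a median factor of 1.51 over the 8 kinase module members, against 1.23 over all genes tested.

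Among the upstream and junction genes, the cytoplasmic scaffold gene Wwc1 and the atypical cadherin gene Fat1 rose, and the paired cadherin genes Fat4 and Dchs1 fell. Of 11 tested members 2 rose and 2 fell, against 6.25% and 7.22% of all genes. In 8 of them every CD71(low) library was higher and in 2 every one was lower, where 58.2% and 12.0% of all genes did so. Without library 3, 8 rose and 2 fell, where 40.9% of all genes rose and 12.2% fell. With median-of-ratios scaling 1 rose and 2 fell, where 2.65% and 9.25% of all genes did so.

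Wwc1 encodes KIBRA, a scaffold that brings LATS kinases to the cell cortex. The gene lies on chromosome 11, 35838400 to 35980527, in mm10. It measured 63.4 and 73.1 RPKM in the CD71(negative) libraries and 139, 134 and 133 RPKM in the CD71(low) libraries. The groups were far apart, with means of 68.3 ± 6.84 and 135.5 ± 3.00 RPKM (log2 fold change 0.98 with SE 0.12, limma adjusted p = 0.00792). It was called also without library 3 (0.99, limma adjusted p = 2.16e-05) and with median-of-ratios scaling (0.69, limma adjusted p = 0.0452). Per 1000 RPKM of the ductal markers, Wwc1 stood at 17.7 and 19.1 in CD71(negative) and at 26.8, 25.9 and 18.2 in CD71(low), so that on this scale library 3 overlapped the other group. One gene, Spp1, made up most of the ductal sum, at 2286 of 3582 RPKM in CD71(negative) library 1 and 4846 of 7332 RPKM in library 3. Without Spp1, a choice made after seeing the data, Wwc1 stood at 48.9 and 52.4 against 60.7, 60.5 and 53.6 per 1000 ductal RPKM, with no overlap. Its paralogue Wwc2 measured 9.33 and 9.82 RPKM against 11.9, 10.7 and 9.22 RPKM and did not pass (log2 fold change 0.13 with SE 0.14, limma adjusted p = 0.484). The ratio of Wwc1 to Wwc2 within a library was 6.80 and 7.44 in CD71(negative) and 11.7, 12.5 and 14.5 in CD71(low).

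Fat1 encodes a giant cadherin of epithelial cells that can assemble Hippo kinases in mammalian cells. It measured 9.25 and 10.4 RPKM against 17.0, 16.2 and 14.3 RPKM, with no overlap (log2 fold change 0.64 with SE 0.13, limma adjusted p = 0.0346). Fat1 was no longer called with median-of-ratios scaling (0.36, limma adjusted p = 0.279) or without any single library other than library 3 (limma adjusted p = 0.126 to 0.344). Fat4 and Dchs1 encode a cadherin and its ligand on neighbouring cells, which in the mouse act together in kidney and mesenchyme. Fat4 measured 4.00 and 3.77 RPKM against 2.04, 1.56 and 1.58 RPKM (log2 fold change -0.84 with SE 0.14, limma adjusted p = 0.0168). Dchs1 (chromosome 7, 105752990 to 105787654) measured 4.54 and 4.19 RPKM against 1.33, 0.800 and 0.531 RPKM, a log2 fold change of -1.53 (with SE 0.20, limma adjusted p = 0.00921). Both genes were lower in every CD71(low) library. The ratio of Fat1 to Fat4 was 2.31 and 2.75 in CD71(negative) and 8.33, 10.4 and 9.02 in CD71(low). The mesenchymal, endothelial, leukocyte and Schwann cell sums given above were also lower in CD71(low), and their part in the falls of Fat4 and Dchs1 was not tested.

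The members of the angiomotin family and the FERM proteins had higher levels in every CD71(low) library without passing over all 5. Angiomotins bind YAP at junctions and actin, and Amotl2 is also a YAP target. Amotl2 measured 38.2 and 42.0 RPKM against 58.7, 58.2 and 75.1 RPKM (log2 fold change 0.65 with SE 0.16, limma adjusted p = 0.0519). Its groups did not overlap, and without library 3 it was called (0.54, limma adjusted p = 0.000762). Amotl1 measured 12.4 and 13.4 RPKM against 16.7, 15.4 and 18.3 RPKM. Amot, at a lower level, measured 2.16 and 2.70 RPKM against 3.43, 4.03 and 7.14 RPKM, with library 3 apart from the others. Frmd6, a FERM protein gene, measured 12.01 and 15.2 RPKM against 20.5, 21.2 and 26.2 RPKM (log2 fold change 0.70 with SE 0.17, limma adjusted p = 0.0525). The tumour suppressor gene Nf2, encoding merlin, measured 13.6 and 13.5 RPKM against 17.9, 15.6 and 19.2 RPKM. Over all 5 libraries Amot, Amotl1 and Nf2 did not pass (limma adjusted p = 0.133, 0.113 and 0.124). Without library 3 Frmd6, Nf2, Amot and Amotl1 were called, with log2 fold changes of 0.59, 0.29, 0.46 and 0.30 (limma adjusted p = 0.00217, 0.0279, 0.00931 and 0.0213). With median-of-ratios scaling as well, Frmd6 was still called (0.41, limma adjusted p = 0.011). Nf2, Amot and Amotl1 then were not (0.10, 0.32 and 0.11, limma adjusted p = 0.407, 0.052 and 0.283).

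Limd1 encodes a LIM protein that binds and inhibits LATS. Its values were 13.8 and 14.2 RPKM against 16.9, 16.5 and 20.4 RPKM, with a log2 fold change of 0.33 (with SE 0.14, limma adjusted p = 0.141). Without library 3 Limd1 was called (0.24, limma adjusted p = 0.0334), but not with median-of-ratios scaling as well (0.06, limma adjusted p = 0.559). Ajuba, its relative, is listed in these tables under the older symbol Jub, which the RefSeq gene table pairs with it. Outside the counts above, Jub measured 12.6 and 15.6 RPKM against 26.9, 26.7 and 26.3 RPKM. It was higher in all CD71(low) libraries and passed the test (log2 fold change 0.88 with SE 0.13, limma adjusted p = 0.0128). Median-of-ratios scaling ended the call of Jub (0.60, limma adjusted p = 0.055).

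Among the coactivators and their DNA-binding partners, Tead3 rose, and the groups overlapped for Tead2, the TEAD gene with the highest level. Of 7 tested members 1 rose and 0 fell, where 6.25% and 7.22% of all genes did so. At an unadjusted p under 0.05 in limma, 3 of 7 were higher and 0 lower, against 3235 higher and 1080 lower of 11769 genes. Without library 3, 4 rose (Yap1, Tead1, Tead3 and Vgll4), where 40.9% of all genes rose. With median-of-ratios scaling 0 passed, where 2.65% of all genes rose and 9.25% fell. In that fit 1 was higher and 1 lower at an unadjusted p under 0.05 in limma, against 1372 and 1665 of 11773 genes.

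Yap1 measured 13.0 and 13.8 RPKM in the CD71(negative) libraries and 16.7, 17.2 and 23.6 RPKM in the CD71(low) libraries. All CD71(low) libraries were higher, and the log2 fold change of 0.47 did not pass (with SE 0.18, limma adjusted p = 0.128). Without library 3 it was 0.32 and passed (limma adjusted p = 0.0124), but not with median-of-ratios scaling, alone (0.19, limma adjusted p = 0.309) or also without library 3 (0.13, limma adjusted p = 0.182). Wwtr1, encoding TAZ, measured 15.1 and 17.0 RPKM against 16.6, 16.8 and 19.1 RPKM, with overlapping groups (log2 fold change 0.12 with SE 0.13, limma adjusted p = 0.468, and -0.16 with median-of-ratios scaling). The ratio of Yap1 to Wwtr1 within a library, which no scaling of the library changes, was 0.863 and 0.814 in CD71(negative) and 1.00, 1.03 and 1.24 in CD71(low). The 2 groups did not overlap in this ratio, and how often other gene pairs separate them was not computed. With 2 libraries against 3, the smallest two-sided p of an exact permutation test is 0.2, so none is given for ratios and shares.

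Tead3 measured 6.14 and 7.43 RPKM against 13.2, 11.0 and 10.7 RPKM. Its groups were apart (log2 fold change 0.70 with SE 0.15, limma adjusted p = 0.0387), and median-of-ratios scaling ended the call (0.44, limma adjusted p = 0.205), as did leaving out any single library other than library 3 (limma adjusted p = 0.114 to 0.36). Tead1 measured 7.28 and 7.64 RPKM against 11.2, 11.2 and 15.5 RPKM, also with no overlap, and missed the threshold (log2 fold change 0.67 with SE 0.18, limma adjusted p = 0.0641). Tead2 measured 19.9 and 21.9 RPKM against 20.5, 20.3 and 22.4 RPKM (log2 fold change 0.01 with SE 0.12, limma adjusted p = 0.939). The sign of Tead2 turned with median-of-ratios scaling (-0.27), and it was called lower when library 3 was also left out (-0.22, limma adjusted p = 0.0429). Tead4, the lowest of the family, measured 1.85 and 1.93 RPKM against 2.21, 1.72 and 2.21 RPKM.

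Tead2 made up a smaller share of the summed TEAD transcripts in CD71(low) cells. Of the summed Tead1 to Tead4 RPKM it took 56.5% and 56.3% in the CD71(negative) libraries and 43.6%, 45.9% and 44.1% in the CD71(low) libraries. Tead1 took 20.7% and 19.6% against 23.7%, 25.3% and 30.5%. Tead3 took 17.5% and 19.1% against 28.0%, 24.9% and 21.1%. In none of these 3 shares did the groups overlap, and within CD71(low) library 3 had the highest share of Tead1 and the lowest of Tead3. The Tead4 share was 5.28% and 4.96% against 4.70%, 3.89% and 4.35%, also with no overlap.

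**Figure D4:**
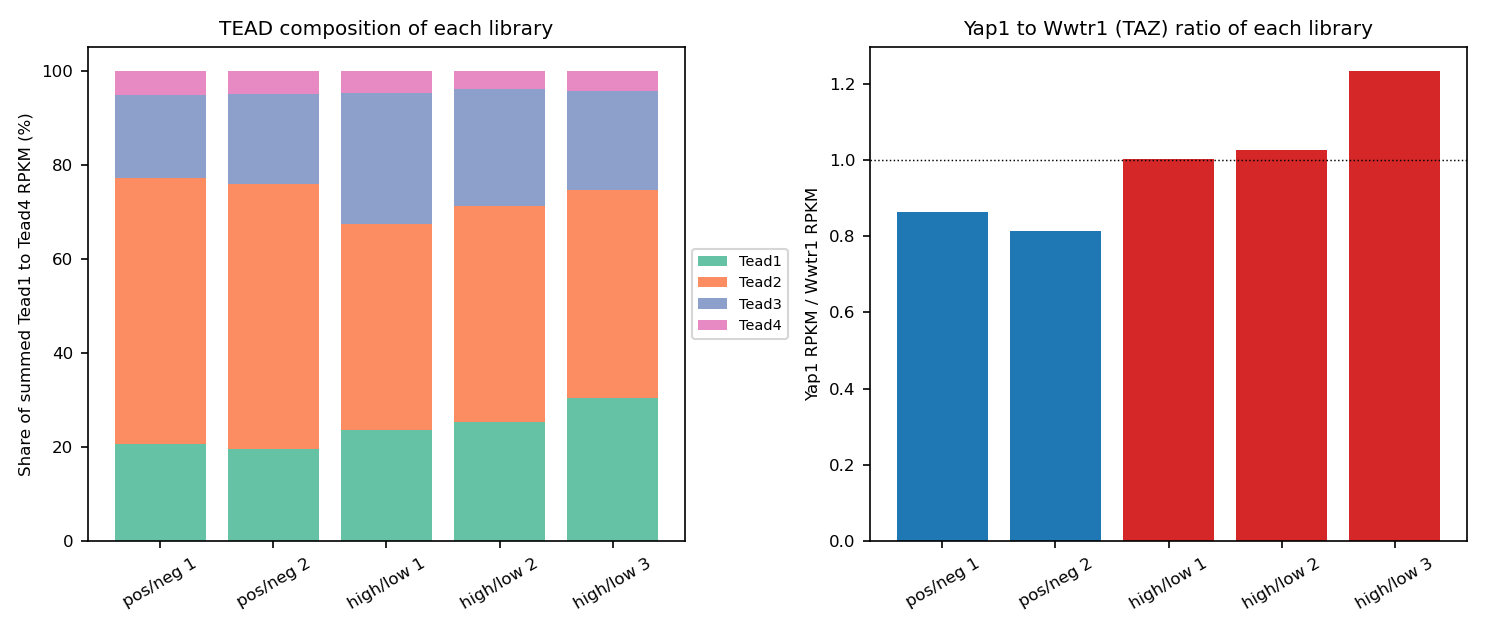
Left, share of the summed Tead1 to Tead4 RPKM (%) taken by each gene in each library, and right, the ratio of Yap1 to Wwtr1 RPKM, with pos/neg for CD133(positive)CD71(negative) and high/low for CD133(high)CD71(low). Tead2 takes 56.3% to 56.5% in the former and 43.6% to 45.9% in the latter, and the ratio is 0.814 to 0.863 against 1.00 to 1.24.

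The Vgll proteins bind TEADs through the surface that YAP and TAZ use. Vgll4, which competes with YAP, measured 12.03 and 14.4 RPKM against 17.7, 17.4 and 34.6 RPKM. Library 3 stood at 1.97 times the mean of CD71(low) libraries 1 and 2, the highest such ratio among the tested members. The log2 fold change of 0.70 (with SE 0.32, limma adjusted p = 0.17) was 0.39 without library 3 (limma adjusted p = 0.0106). With median-of-ratios scaling as well it was 0.20 and was not called (limma adjusted p = 0.085). Vgll3, below the level for testing, was listed at 0.353 and 0.605 RPKM against 0.225, 0.194 and 0.115 RPKM.

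The YAP target genes did not move as a block: Cyr61, Ankrd1 and Ptpn14 rose and Axl fell. Of 6 tested target members 3 rose and 1 fell, where 6.25% and 7.22% of all genes did so. Their median log2 fold change was 0.49, and the groups did not overlap in any of the 6. Every CD71(low) library was higher in 4 and lower in 2, where 58.2% and 12.0% of all genes did so. Without library 3, 4 rose and 2 fell, where 40.9% of all genes rose and 12.2% fell. With median-of-ratios scaling 1 rose and 1 fell, where 2.65% and 9.25% of all genes did so. Whether targets differed from kinases was not tested.

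Cyr61 (RefSeq symbol Ccn1) encodes a secreted matricellular protein. On chromosome 3, 145646976 to 145649981, it measured 59.3 and 67.3 RPKM in the CD71(negative) libraries and 100, 126 and 128 RPKM in the CD71(low) libraries. Means were 63.3 ± 5.65 and 117.9 ± 15.6 RPKM with no overlap (log2 fold change 0.88 with SE 0.16, limma adjusted p = 0.0241), and the call ended with median-of-ratios scaling (0.59, limma adjusted p = 0.0601). Its relative Ctgf (RefSeq symbol Ccn2), another secreted matricellular protein gene, measured 15.5 and 16.5 RPKM against 18.9, 20.5 and 30.1 RPKM. All CD71(low) libraries were higher, library 3 most of all, and Ctgf did not pass (log2 fold change 0.48 with SE 0.22, limma adjusted p = 0.166). Without library 3 Ctgf was called at 0.28 (limma adjusted p = 0.0237), but not with median-of-ratios scaling, alone (0.20, limma adjusted p = 0.418) or also without library 3 (0.10, limma adjusted p = 0.354).

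Ankrd1, which encodes an ankyrin repeat protein of the nucleus and sarcomere, lies on chromosome 19, 36111961 to 36120099. It measured 14.8 and 14.7 RPKM against 23.6, 23.7 and 27.1 RPKM, with no overlap. The log2 fold change was 0.71 (with SE 0.12, limma adjusted p = 0.0196), and it was also called with median-of-ratios scaling (0.43, limma adjusted p = 0.0456). Leaving out any single library other than library 3 ended the call of Ankrd1 (limma adjusted p = 0.0707 to 0.236). Ptpn14 encodes a phosphatase that binds YAP and holds it in the cytoplasm, and it is itself a YAP target. It measured 12.01 and 13.8 RPKM against 19.0, 18.3 and 18.8 RPKM (log2 fold change 0.51 with SE 0.12, limma adjusted p = 0.0463). Ptpn14 was no longer called with median-of-ratios scaling (0.23, limma adjusted p = 0.317) or without any single library other than library 3 (limma adjusted p = 0.14 to 0.399).

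Axl, a receptor tyrosine kinase gene, fell most of all members. On chromosome 7, 25757273 to 25788705, it measured 6.94 and 7.50 RPKM in CD71(negative) and 1.25, 0.693 and 0.351 RPKM in CD71(low). The mean was 9.42 times as high in CD71(negative), and the log2 fold change was -2.25 with SE 0.23 (limma adjusted p = 0.0043), or -3.22 with a pseudocount of 0.1. It was called without library 3 and with median-of-ratios scaling (-2.07 and -2.44, limma adjusted p = 2.97e-06 and 0.00378). Without CD71(negative) library 1 or 2 its limma adjusted p was 0.0932 or 0.0947. Axl is also expressed by macrophages, endothelium and mesenchyme. The leukocyte sum was 32.2 times, the endothelial sum 5.39 times and the mesenchymal sum 2.31 times as high in CD71(negative). Vim and Sparc made up most of the mesenchymal sum, at 2.15 and 1.96 times. The matrix genes Col1a1, Dcn, Col1a2 and Fn1 were 9.26, 8.98, 6.85 and 6.64 times as high. Of the same list, Rgs5 (0.8875 times) and Pdgfrb (1.5 times) had overlapping groups, and Des (1.985 times) and Acta2 (3.81 times) were not called. Pdgfrb, Pdgfra and Lum had a mean under 1 and were not tested. The part of these cell types in the fall of Axl was not tested. In sorted populations measured in bulk, fewer cells of a type and less RNA per cell cannot be told apart. Crim1, encoding a transmembrane protein that binds bone morphogenetic proteins, measured 14.2 and 14.8 RPKM against 12.5, 10.9 and 9.39 RPKM. It was lower in every CD71(low) library and did not pass (log2 fold change -0.39 with SE 0.15, limma adjusted p = 0.128). Without library 3 Crim1 was called lower (-0.29, limma adjusted p = 0.0266), also with median-of-ratios scaling added (-0.47, limma adjusted p = 0.00369). With that scaling alone it was not (-0.66, limma adjusted p = 0.114).

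TEADs recognise the letters GGAATG, and the start regions of the target members that passed the test are shown because they carry these letters. Both strands were searched over the 250 bases before each RefSeq start site (GRCm38.p6). Of all 32851 start regions 12.6% hold a match, and of 27025 genes 14.4% have one in at least 1 start region. All 5 target members found in the sequence table held a match (Cyr61, Ankrd1, Axl, Crim1 and Ptpn14), as did 11 of 23 other genes of the list of 34 found there. The targets were put on the list as known YAP targets, so this share is a description of the list. Both rising and falling genes are among the 5. In the following 5' to 3' sequences capitals mark matches on either strand, and the last base adjoins the start site. The Cyr61 region is chr3:145649986-145650235 (minus strand), with the match opening 103 bases before the start site. The Ankrd1 region is chr19:36119845-36120094 (minus strand), with matches at 210 and 123 bases. The Ptpn14 region is chr1:189728018-189728267 (plus strand), with a match at 146 bases, and the Axl region is chr7:25788734-25788983 (minus strand), with a match at 233 bases.
Cyr61: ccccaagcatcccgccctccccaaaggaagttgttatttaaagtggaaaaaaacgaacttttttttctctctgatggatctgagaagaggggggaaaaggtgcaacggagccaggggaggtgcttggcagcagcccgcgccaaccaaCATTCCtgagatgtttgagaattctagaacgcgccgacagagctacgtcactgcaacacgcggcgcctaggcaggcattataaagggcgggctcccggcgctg
Ankrd1: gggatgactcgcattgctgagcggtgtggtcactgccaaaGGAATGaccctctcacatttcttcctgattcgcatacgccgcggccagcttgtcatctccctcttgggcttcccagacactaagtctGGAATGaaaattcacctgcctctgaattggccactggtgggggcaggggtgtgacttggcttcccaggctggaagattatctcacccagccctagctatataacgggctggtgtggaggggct
Ptpn14: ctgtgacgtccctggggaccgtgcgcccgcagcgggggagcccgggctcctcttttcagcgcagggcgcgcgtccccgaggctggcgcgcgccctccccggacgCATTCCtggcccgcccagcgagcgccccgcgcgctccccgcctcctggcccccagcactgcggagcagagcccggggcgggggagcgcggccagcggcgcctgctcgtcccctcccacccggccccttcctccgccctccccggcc
Axl: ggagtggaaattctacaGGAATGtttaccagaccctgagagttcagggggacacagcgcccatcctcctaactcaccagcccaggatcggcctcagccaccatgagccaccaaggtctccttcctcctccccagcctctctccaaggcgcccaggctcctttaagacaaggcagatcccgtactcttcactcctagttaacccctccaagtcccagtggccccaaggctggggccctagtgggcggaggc
A match is no evidence of binding. The genes with a match differed in direction in these libraries, with Axl at -2.25 and Cyr61 at 0.88 on the log2 scale. Wwc1, the member with the largest rise, held no match in its start region.

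The wider list of YAP and TAZ targets known from human cancers also held genes of both directions. It has 13 genes in all tables apart from the members, of which 11 were tested. Of these 4 rose and 2 fell, where 6.25% and 7.22% of all genes did so, with a median log2 fold change of 0.56 against 0.31 for all genes. Without library 3, 7 of 12 rose and 3 fell, where 40.9% and 12.2% of all genes did so. Leaving out any other single library gave 0 to 1 risen and 0 to 2 fallen genes, and with median-of-ratios scaling 2 of 12 rose and 3 fell.

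The risen genes were Nuak2, Myof, Arhgef17 and F3. Nuak2, encoding a kinase that feeds back on the Hippo pathway, measured 4.00 ± 0.034 RPKM in CD71(negative) and 7.83 ± 0.26 RPKM in CD71(low) (log2 fold change 0.82, limma adjusted p = 0.0111). Myof, encoding the membrane repair protein myoferlin, measured 14.9 ± 0.58 and 26.01 ± 0.79 RPKM (0.77, limma adjusted p = 0.0114). Arhgef17 measured 9.20 ± 1.01 and 16.4 ± 0.96 RPKM (0.77, limma adjusted p = 0.0179). F3, encoding tissue factor, measured 18.6 ± 2.75 and 33.9 ± 2.30 RPKM (0.84, limma adjusted p = 0.0187). With median-of-ratios scaling Myof and F3 were still called, and Nuak2 and Arhgef17 were not (limma adjusted p = 0.051 and 0.108).

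The fallen genes were Igfbp3 and Asap1. Igfbp3, encoding a binding protein of insulin-like growth factors, measured 127 and 131 RPKM in CD71(negative) and 33.3, 21.1 and 9.31 RPKM in CD71(low). Its fall was the largest of this list (log2 fold change -2.71 with SE 0.49, limma adjusted p = 0.024). The part of the endothelial, leukocyte and mesenchymal sums given above in this fall was not tested. Asap1, encoding an Arf GTPase-activating protein, measured 5.95 ± 0.20 and 2.96 ± 0.55 RPKM (-0.82, limma adjusted p = 0.0279).

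**Figure D5:**
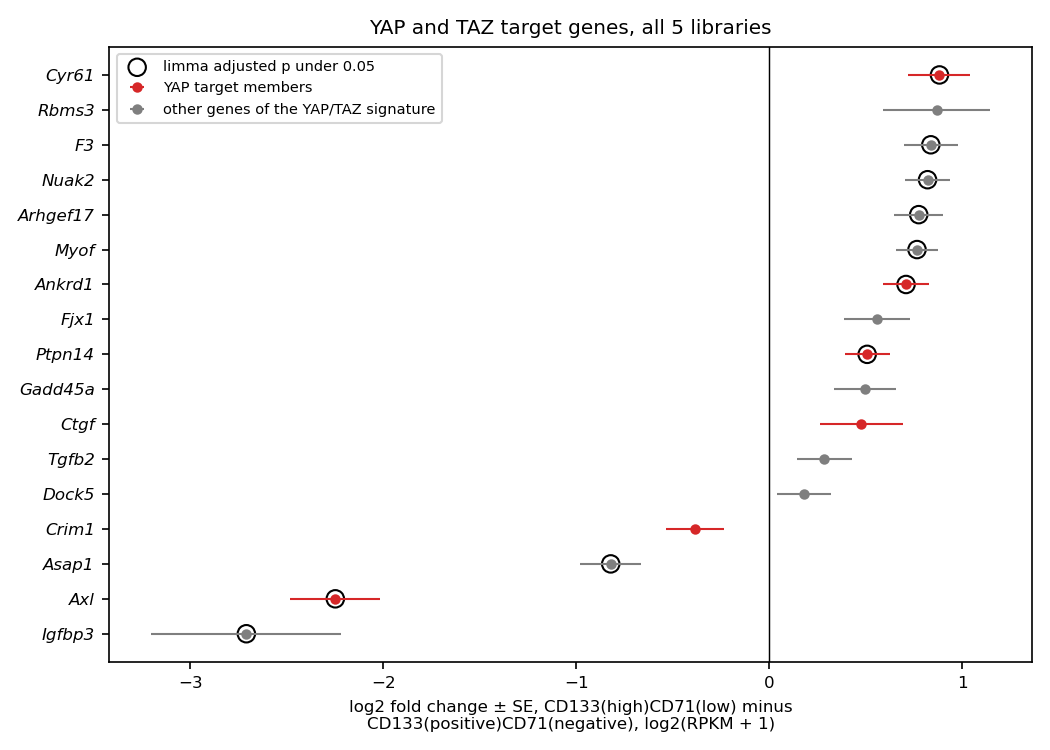
Log2 fold changes with SE (x axis, log2(RPKM + 1) scale) of the 6 YAP target members and the 11 tested genes of the wider YAP and TAZ target list, all 5 libraries, with rings around genes at a limma adjusted p under 0.05. The ringed rises lie between 0.51 and 0.88, and the falls of Igfbp3 (-2.71) and Axl (-2.25) are larger than any rise.

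Other genes linked to the pathway rose where they passed. Of 27 tested genes among 30 in the tables (further kinases, the STRIPAK phosphatase scaffold, RASSF proteins, polarity and junction proteins and 14-3-3 proteins) 3 rose and 0 fell, where 6.25% and 7.22% of all genes did so. In 20 every CD71(low) library was higher, as in 58.2% of all genes. Crb3, an apical polarity gene of epithelia, measured 21.1 ± 0.60 and 32.7 ± 1.53 RPKM (log2 fold change 0.61, limma adjusted p = 0.0242). Wtip, a relative of Ajuba, measured 8.48 ± 1.35 and 14.2 ± 0.78 RPKM (0.69, limma adjusted p = 0.0321). The median was 0.36, near that of all genes. Without library 3, 15 rose and 0 fell, where 40.9% of all genes rose. Without CD71(low) library 1 or 2 limma called 0, where 0.753% or 0.338% of all genes were called higher. In each of these fits 7 were higher at an unadjusted p under 0.05, against 2414 of 11818 or 2465 of 11819 genes. With median-of-ratios scaling limma called 0, where 2.65% of all genes were called higher. At an unadjusted p under 0.05, 5 were then higher and 0 lower, against 1372 and 1665 of 11773 genes. The ductal sum was 1.59 times as high in CD71(low), and its part in these rises, and in those of the members, was not tested. Per 1000 RPKM of the ductal markers, Spp1 included, Cyr61 stood at 16.5 and 17.6 against 19.3, 24.3 and 17.5. Ankrd1 stood at 4.14 and 3.84 against 4.55, 4.58 and 3.70. Fat1 stood at 2.58 and 2.72 against 3.28, 3.13 and 1.95, and Tead3 at 1.715 and 1.945 against 2.54, 2.12 and 1.46. On this scale library 3 made the groups overlap in each of these called members. Tead1, not called, was higher in every CD71(low) library on it (2.03 and 2.00 against 2.15, 2.15 and 2.11). For these genes the values without Spp1 in the ductal sum were not computed. Whether these orders hold without Spp1 was therefore not tested.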

How the data were processed

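RNA was sequenced from 5 libraries of sorted mouse pancreas cells. Each library has its own table of gene symbols and values from the authors. The submitters' processing notes name Partek and mm10. The aligner, the annotation, strandedness and the unit were not given in the sources used here. Deposited numbers had the properties of RPKM (FPKM cannot be told apart): multiplied by GENCODE M21 transcript length, their sum over a library was 1.01 to 1.06 times the 1000000 that RPKM implies. Low values fell on steps of one read that gave the depths, with 49.2% to 63.2% of them within 0.05 reads of a whole number, too few to recover counts, so no count test was run.

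A row without a gene in the table of library 3 (a total of alignments) was left out. The tables hold 18618 symbols, and 22522 for library 3, with 16992 in common. Values were tested as log2(RPKM + 1), with a pseudocount of 1, for genes with a mean of at least 1, using limma 3.58.1 in R 4.3.3 (group as the sole term, trended empirical Bayes, Benjamini-Hochberg). Fold changes on this scale understate those of low genes. The limma and depth scripts were tested on simulated data. Tables and figures used Python 3.11.15. The members, gene lists and marker lists were chosen with earlier results of these data known. Genes named are all members and, of the 2 lists of other pathway genes, up to 4 called in each direction with the smallest adjusted p, except for 1 gene that is counted but not reported here. Exons of 11 members overlap a gene on the opposite strand, and those of Lats2 one on the same strand, in GENCODE, so their reads may not all be their own. Positions are GENCODE M21 (mm10), and sequences RefSeq (GRCm38.p6).

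Alternatives were a pseudocount of 0.1, no filter, a minimum mean of 5, scaling by median of ratios, quantile normalization, leaving out each library in turn, library 3 left out with median-of-ratios scaling, and a replicate block on the 4 numbered libraries. Ductal sums without Spp1 were added after seeing the data.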

Additional observations from a re-analysis of the deposited data

How the results depend on the processing

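With all 5 libraries 735 genes were higher and 850 lower, with 6 and 3 of the Hippo members. Median-of-ratios scaling gave 312 higher genes, 2 higher members, 1 higher target, 1 higher upstream and junction gene and 0 higher coactivator and TEAD genes (1 higher and 1 lower at an unadjusted p under 0.05 in limma). Quantile normalization gave 1 higher upstream and junction gene. Without a filter 1729 genes were lower. With a minimum mean of 5, 315 genes were lower, with 0 members, 0 targets and 0 upstream and junction genes (limma, 1, 1 and 0 at an unadjusted p under 0.05), since Axl, Dchs1 and Fat4 fell below that minimum. Leaving out each library in turn gave 0 to 4785 higher and 154 to 1425 lower genes, 0 to 16 higher and 0 to 5 lower members, 0 to 1 lower kinase module genes, 0 to 4 higher and 0 to 2 lower targets, 0 to 8 higher and 0 to 2 lower upstream and junction genes, and 0 to 4 higher coactivator and TEAD genes. Median-of-ratios scaling without library 3 gave 1782 higher and 1933 lower genes, 8 lower members, 3 lower kinase module genes, 2 lower targets, 4 higher upstream and junction genes, and 2 higher and 1 lower coactivator and TEAD genes. The cause was not tested for the other shifts.

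With 2 numbered libraries per group, the deviations of same-numbered libraries from their group means give 1 correlation across genes (r of -0.0237), which does not show that the numbers pair the libraries, and no label says that they do. A replicate block on the 4 numbered libraries, which also drops library 3, gave 5275 higher and 1543 lower genes, 17 higher and 5 lower members, 1 higher and 1 lower kinase module gene, 2 lower targets, 8 higher upstream and junction genes and 4 higher coactivator and TEAD genes. It turned the log2 fold changes of Taok1 (-0.0901), Lats2 (-0.0595) and Tead2 (-0.0309).

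Members that were not called changed sign. With median-of-ratios scaling log2 fold changes were -0.149 for Taok1, -0.095 for Stk4, -0.248 for Lats2, -0.139 for Wwc2, -0.159 for Wwtr1, -0.271 for Tead2 and -0.127 for Tead4. With quantile normalization they were -0.0877 for Taok1, -0.0471 for Stk4, -0.246 for Lats2, -0.136 for Wwc2, -0.175 for Wwtr1 and -0.275 for Tead2. With median-of-ratios scaling and without library 3 they were -0.253 for Taok1, -0.154 for Stk4, -0.103 for Mob1b, -0.240 for Lats2, -0.126 for Wwtr1, -0.217 for Tead2 and -0.0981 for Tead4. Over the fits that leave out 1 library each, Taok1 ranged from -0.0901 to 0.242, Sav1 from -0.190 to 0.0129, Lats2 from -0.0595 to 0.108 and Tead2 from -0.0562 to 0.0803. A pseudocount of 0.1 turned or ended no member's call. The recounts for the 2 lists of other pathway genes were added after seeing the data. Vgll3 was left untested by the chosen minimum mean of 1.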

Other observations

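Library 3 of CD133(high)CD71(low) did not exceed libraries 1 and 2 of its group evenly over the members. Its ratio to their mean was above 1.5 in 7 of 32 tested members and was highest for Vgll4 (1.97), Amot (1.92), Mob1b (1.86) and Mob1a (1.72), against a median of 1.23 over all genes tested. It was lowest for Axl (0.361) and Dchs1 (0.497). The gene models of its table differ from those of the other tables, and their part in these ratios was not tested. The members shown here were chosen after their values were seen.

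The balance of paralogous kinase module genes differed between the groups within libraries. The ratio of Mob1a to Mob1b for CD133(positive)CD71(negative) was 5.22 and 4.22, and for CD133(high)CD71(low) it was 3.37, 3.01 and 2.94. That of Stk4 to Stk3 was 1.87 and 1.75 against 1.61, 1.33 and 1.28, and that of Lats1 to Lats2 was 0.498 and 0.457 against 0.513, 0.635 and 0.642. The groups did not overlap in any of these 3 ratios, and no test was run on them. Separation was not limited to kinase module genes. It was also seen for Wwc1 to Wwc2, Fat1 to Fat4, Yap1 to Wwtr1 and Cyr61 to Ctgf. The last ratio was 3.82 and 4.07 against 5.30, 6.12 and 4.26. How often ratios of other gene pairs separate the groups was not computed. Per 1000 RPKM of the ductal markers, Yap1 stood at 3.63 and 3.62 against 3.22, 3.32 and 3.22, and Lats2 at 3.28 and 3.47 against 2.38, 2.24 and 1.97, so that on this scale both were lower in every CD133(high)CD71(low) library. With Spp1, the gene with the highest level, left out of the ductal sum, they were lower as well, with Yap1 at 10.04 and 9.901 against 7.29, 7.77 and 9.49, and Lats2 at 9.06 and 9.51 against 5.39, 5.22 and 5.82.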
